A study of Mus musculus with 6 samples.

Results

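Wnt ligands, their receptors and their secreted antagonists were examined in brown adipose tissue (BAT) of KRAP-deficient mice. Members were all genes whose symbol starts with Wnt, Fzd, Sfrp or Dkk and a digit, together with Frzb, Lrp5, Lrp6, Wif1 and Axin2. This gave 43 of the 18193 genes that the array annotation names, read by 83 probe sets. They were 19 Wnt ligands, 10 Frizzled receptors, 2 co-receptors, 10 secreted antagonists, Axin2 and Fzd10os, an antisense RNA of the Fzd10 locus that the rule on symbols also takes in. The study compared KRAP-/- (KO) with wild-type (WT) littermates at 32 weeks of age, fed normal chow, as 3 littermate pairs with 1 array for each animal. In the KO allele a neomycin cassette replaces several coding exons of KRAP in every cell of the body, and the line was kept on a C57BL6/J background. KRAP associates with actin filaments, and BAT is the heat-producing fat depot.

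Wnt proteins are secreted, lipid-modified ligands that bind Frizzled receptors. Together with the co-receptors Lrp5 and Lrp6 they stabilise beta-catenin, which then acts with TCF/LEF factors on target genes. Axin2 is such a target and at the same time a brake on the pathway. Sfrp proteins, Frzb and Wif1 bind the ligands outside the cell, and Dkk1, Dkk2 and Dkk4 bind the co-receptors. In fat, beta-catenin signalling is known for holding precursor cells back from becoming adipocytes. Wnt5a and Wnt11 mostly act through other branches.

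Every signal below is divided by the median signal of the array it comes from, and each gene is represented by its brightest probe set. Signals of different genes are not ranked here, because probe sets bind with different strength. In bulk tissue, fewer cells of a type and less RNA per cell cannot be told apart. Brown adipocyte markers were present on all arrays, with a summed signal of 7 markers between 2427 and 3041 in KO and between 2463 and 3121 in WT. The targeted gene, listed as Itprid2, read 35.1 to 47.0 in KO and 42.2 to 56.6 in WT (limma adjusted p = 0.720). It is not known here whether this probe set lies inside the deletion, so it does not check the genotype labels. In RNA quality, WT 2 differed from the rest, where the 3' actin signal was 3.80 times the 5' signal and the other arrays had 1.91 to 2.58. The 18S rRNA 5' probe set read 1143 intensity units on that array and 32.8 to 76.9 on the others. For the brightest probe set of each tested member, differences that shift by over 1.5 times without pair 2 are therefore given without it as well. Values of other probe sets and of genes outside the member list rest on all 3 pairs only.

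No member differed between KO and WT after adjustment. Of the 43 genes, 21 were bright enough to test, with a mean over the 6 arrays that exceeded 1, and 0 of these passed an adjusted p of 0.05 in a limma fit blocked on pair (smallest adjusted p = 0.515, while 0% of all 22356 tested probe sets passed). An unadjusted p under 0.05 was found for 2 of the 21 members, Sfrp1 on the higher and Wnt8b on the lower side, beside 8.55% of all tested probe sets (3.41% on the higher and 5.14% on the lower side). The median log2 difference of the members was -0.10, against -0.05 over all tested probe sets. Without pair 2 these medians were -0.01 and 0.01, and with signals as deposited -0.04 and 0.01. In 6 members KO was lower in all 3 pairs and in 2 it was higher, where the background shares were 18.4% and 12.4%. With the signals left as deposited or quantile normalized, 3 were lower and 2 higher in all 3 pairs. A change of 1.5-fold or more in all 3 pairs, the criterion of the study, was met by 0 of the 43 members at their brightest probe set. Of the tested probe sets, 1.37% met it (0.555% higher and 0.819% lower). A dimmer, untested probe set of Fzd5 met it on the lower side and is given below. For 20 of the 21 tested members the fold difference was smaller than the ratio of the highest to the lowest WT array. That ratio includes differences between litters, which the fit blocked on pair removes. The share over all tested probe sets was not taken, so the count is not a trait of the members.

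**Figure D1:**
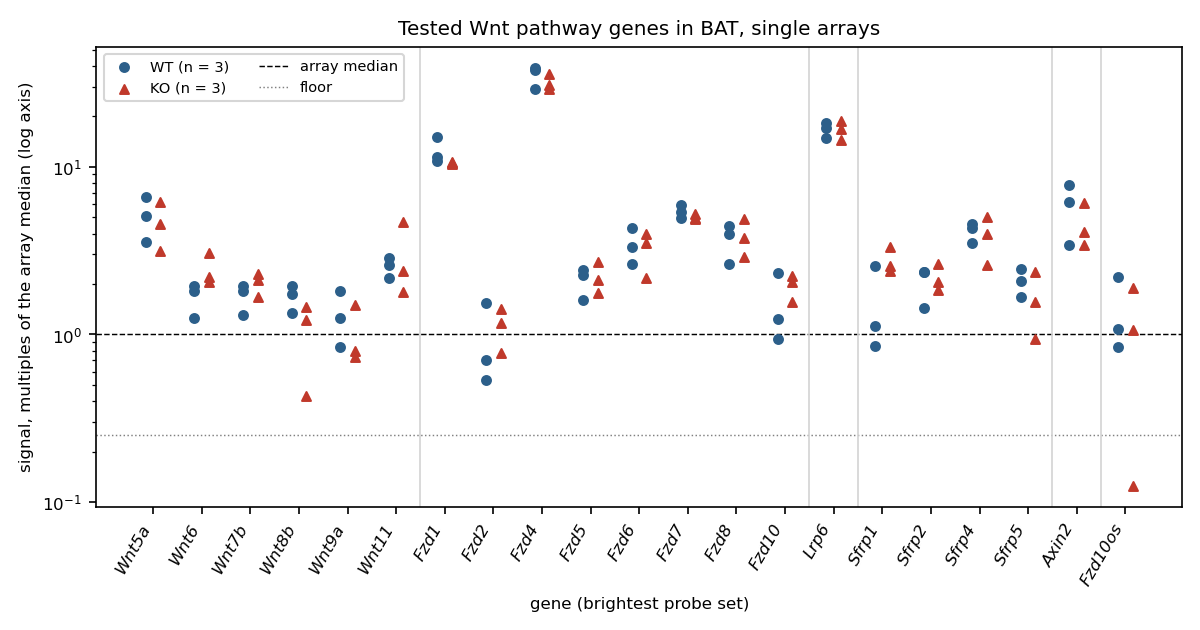
Signals of the 21 tested genes on single arrays, divided by the array median and drawn on a log axis, with WT as circles and KO as triangles (n = 3 each). Grey lines part ligands, Frizzled receptors, the co-receptor Lrp6, antagonists, Axin2 and Fzd10os. KO and WT points overlap for 19 genes, and stand apart for Wnt6 (KO higher) and Fzd1 (KO lower).

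Among the ligands, 6 of 19 were tested. Wnt5a, a ligand of the beta-catenin-independent branch that is made by stromal cells and adipose macrophages, had KO signals of 3.13, 6.17 and 4.55 and WT signals of 3.57, 6.63 and 5.09, here and below in the order of pairs 1 to 3. Its level followed the pair more than the genotype, lowest in both animals of pair 1 and highest in both of pair 2. Within each pair KO lay slightly below WT, with KO over WT ratios of 0.876, 0.931 and 0.893, and the log2 difference was -0.15 (95% confidence interval, here called the 95% interval, -0.60 to 0.29, limma adjusted p = 0.868). This interval allows a fold between 0.661 and 1.22. The dimmer tested probe set of Wnt5a gave -0.30, with 2 of 3 pairs lower.

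Wnt6, a ligand that holds back adipogenesis in culture, read 2.21, 3.04 and 2.06 in KO and 1.81, 1.25 and 1.94 in WT. All KO arrays lay above all WT arrays, as did 4.59% of the tested probe sets. The log2 difference of Wnt6 was 0.56 (95% interval -0.11 to 1.22, limma adjusted p = 0.639). It rested largely on pair 2, where the ratio was 2.44 against 1.22 and 1.06 in the other pairs, and it was 0.19 without pair 2. Wnt7b, a ligand best known from lung and kidney development, read 2.11, 2.29 and 1.68 in KO and 1.83, 1.96 and 1.30 in WT. Its ratios of 1.16, 1.17 and 1.29 were alike in the 3 pairs, with a log2 difference of 0.27 (-0.18 to 0.72, limma adjusted p = 0.731).

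Wnt8b, a ligand of the embryonic forebrain, had the largest difference of the 6 tested ligands. It read 0.428, 1.23 and 1.45 in KO and 1.34, 1.95 and 1.74 in WT, so 2 of 3 KO arrays lay below the lowest WT array. The log2 difference was -0.86 (95% interval -1.56 to -0.16, unadjusted p = 0.0238 and limma adjusted p = 0.515), and it was -0.47 without pair 1, whose ratio of 0.319 was the lowest. The further 2 probe sets of Wnt8b never exceeded 0.178 of the median on any array, so only 1 of 3 gave a signal. Wnt9a was lower in KO in all 3 pairs, reading 0.737, 0.795 and 1.51 in KO and 0.842, 1.25 and 1.82 in WT. Its log2 difference was -0.37 (-0.85 to 0.11, limma adjusted p = 0.663) and -0.23 without pair 2.

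Wnt11, which acts mainly outside the beta-catenin branch, read 4.65, 1.80 and 2.40 in KO and 2.85, 2.61 and 2.17 in WT. The KO animal of pair 1 was the highest and that of pair 2 the lowest of the 6. The log2 difference was 0.11 (-0.54 to 0.76, limma adjusted p = 0.945) and turned to -0.19 without pair 1, against 0.43 without pair 2.

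The remaining 13 ligands had mean signals from 0.0267 to 0.923 of the array median and were not tested. Wnt10b, the ligand best known for blocking adipogenesis, read 0.169, 0.0972 and 0.103 in KO and 0.194, 0.620 and 0.0962 in WT, so 5 of 6 signals lay below the floor of 0.25 under which values were not told apart. Wnt3 lay below that floor on all 6 arrays. Wnt2 read 0.611, 0.889 and 0.178 in KO and 0.164, 0.0572 and 0.110 in WT, and Wnt3a read 0.752, 0.622 and 0.264 in KO and 0.209, 0.228 and 0.212 in WT. The KO arrays of both genes lay above all WT arrays, but every WT signal and the Wnt2 signal of KO 3 were below the floor, so no fold is given and Wnt2 counts as higher in only 2 pairs. When all probe sets were fitted without a filter, the adjusted p of Wnt2 and Wnt3a was 0.739 for both.

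**Figure D2:**
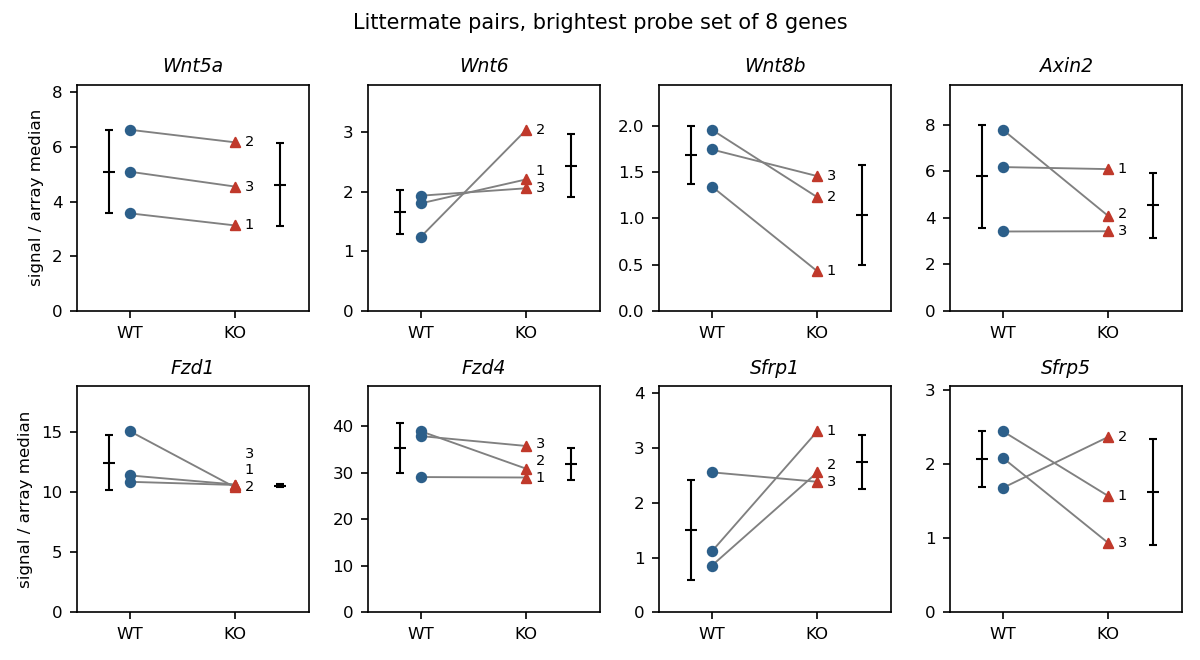
Signals of 8 genes in the WT and KO animal of each littermate pair, divided by the array median, on linear axes that start at 0. Grey lines join littermates, numbers at the right are pairs, and bars are means with SD (n = 3). Wnt5a and Wnt8b lie below WT in each KO littermate, Wnt6 is higher in each but mostly in pair 2, and Axin2 is lower in KO in pair 2 and nearly level in the others.

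Of the 10 Frizzled receptors, 8 were tested, and none departed from WT by more than 1.39-fold at its brightest probe set. Fzd4, a receptor known from blood vessels that also binds Norrin, read 29.0, 30.8 and 35.7 in KO and 29.1, 38.9 and 37.8 in WT. KO was lower in all 3 pairs, by very little in pair 1, with ratios of 0.997, 0.793 and 0.944. The log2 difference was -0.14 (95% interval -0.60 to 0.32, limma adjusted p = 0.889) and -0.04 without pair 2. A second bright probe set of Fzd4 read 22.1, 18.8 and 23.7 in KO and 27.3, 26.6 and 25.1 in WT, with no overlap, at a log2 difference of -0.30 (-0.77 to 0.18, limma adjusted p = 0.716). KO arrays all lay below WT arrays for 7.16% of the tested probe sets. The dimmest tested probe set of Fzd4 gave 0.00087 (-0.54 to 0.54). Endothelial markers lay in the same direction: 4 of 6 (Kdr, Tie1, Cdh5 and Emcn) were lower in all 3 pairs, beside 18.4% of all tested probe sets. Their summed signal was 44.5 to 48.2 in KO and 47.1 to 64.2 in WT, so the groups overlapped. The part of these markers in the Fzd4 values was not tested.

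Fzd1, a receptor of the beta-catenin branch, read 10.6, 10.4 and 10.6 in KO and 10.9, 15.1 and 11.4 in WT. The KO arrays were nearly identical and all lay below the WT arrays, but the distance was set by the WT array of pair 2. The log2 difference of -0.22 (95% interval -0.71 to 0.27, limma adjusted p = 0.814) was -0.07 without pair 2. The dimmer tested probe set of Fzd1 had ratios of 0.981, 1.02 and 0.511 and gave -0.32 (-0.94 to 0.30, limma adjusted p = 0.776). Fzd7, its close relative, read 4.91, 4.98 and 5.22 in KO and 5.36, 5.95 and 4.93 in WT, a log2 difference of -0.10 (-0.56 to 0.36) that was -0.02 without pair 2. Fzd2, the other member of this subfamily, had a mean close to the array median and read 0.780, 1.42 and 1.17 in KO and 0.704, 0.534 and 1.54 in WT. Its log2 difference of 0.39 (limma adjusted p = 0.807) rested on a ratio of 2.66 in pair 2 and was -0.12 without that pair. A second probe set of Fzd2, untested at a mean of 0.919, read 1.26, 1.03 and 1.15 in KO and 0.478, 0.993 and 0.605 in WT. Its KO signals all lay above WT, as for 4.59% of the tested probe sets, with ratios of 2.64, 1.03 and 1.90. The dimmest probe set of Fzd2 had 3 signals below the floor.

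Fzd10 read 2.24, 2.05 and 1.57 in KO and 2.31, 0.935 and 1.24 in WT. Its log2 difference of 0.48 (95% interval -0.16 to 1.12, limma adjusted p = 0.673) was 0.15 without pair 2. The antisense transcript Fzd10os read 1.88, 0.125 and 1.07 in KO and 2.22, 0.838 and 1.08 in WT, with 1 of 6 signals below the floor, a log2 difference of -0.66 (limma adjusted p = 0.660) and -0.12 without pair 2. The value for Fzd10os ran from -0.997 with a floor of 0.05 to -0.33 with a floor of 0.5 and -0.29 with a pseudocount. Fzd5, Fzd6 and Fzd8 had log2 differences of 0.07, -0.11 and 0.07, with intervals that reached at most 0.71 from 0. Without pair 2 these values were 0.34, -0.01 and 0.41. Their pair ratios fell on both sides of 1, between 0.661 and 1.42. The signals of Fzd5 ran from 1.598 to 2.72, of Fzd6 from 2.18 to 4.30 and of Fzd8 from 2.64 to 4.91. A dimmer, untested probe set of Fzd5 read 0.271, 0.317 and 0.114 in KO and 0.491, 0.613 and 0.612 in WT, with 1 signal below the floor. Its KO signals all lay below WT, as for 7.16% of the tested probe sets, with ratios of 0.552, 0.517 and 0.408. In the limma fit without a filter its log2 difference was -1.03 (unadjusted p = 0.00507, adjusted p = 0.634). Fzd3 and Fzd9 had mean signals of 0.725 and 0.161 and were not tested.

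**Figure D3:**
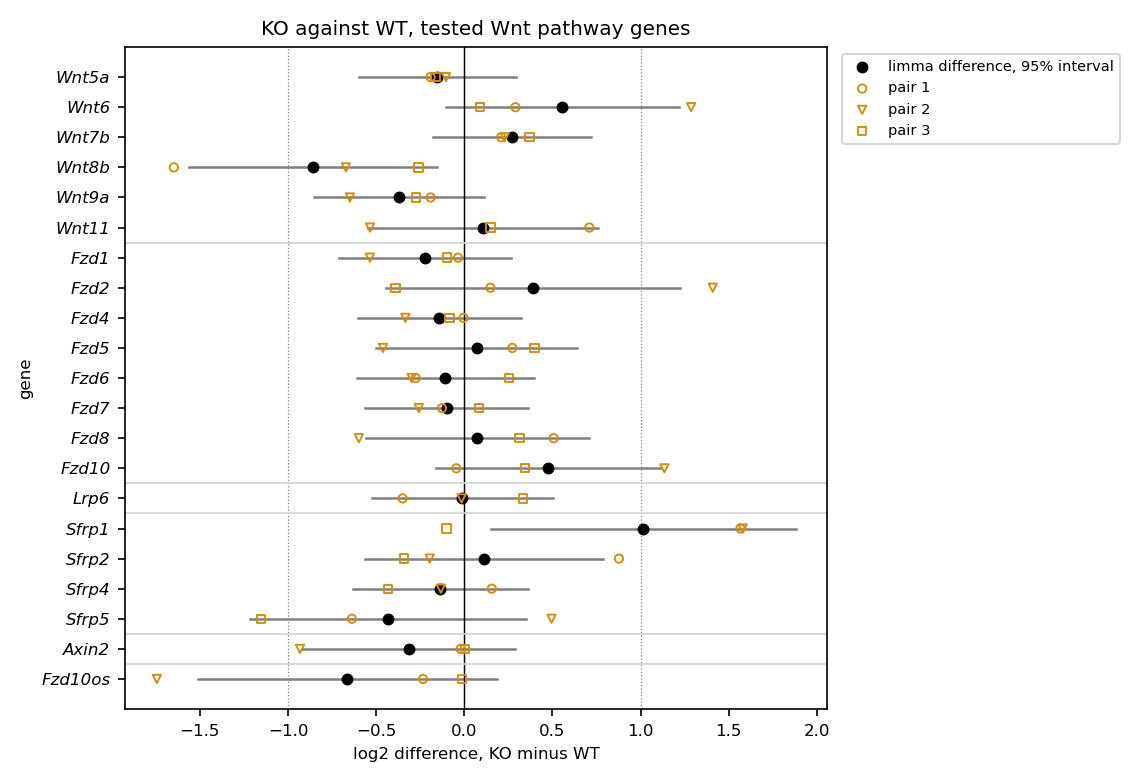
Log2 differences (KO minus WT) of the 21 tested genes from limma with their 95% intervals (black points, grey bars), and the log2 ratio of each littermate pair (open symbols). Dotted lines mark a 2-fold change either way. The intervals of Wnt8b and Sfrp1 leave out 0 before adjustment, and the pair 2 symbols stand far from the others for Wnt6, Fzd2, Fzd10, Axin2 and Fzd10os.

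The co-receptor Lrp6 read 14.4, 16.9 and 18.7 in KO and 18.4, 17.0 and 14.8 in WT. The groups covered nearly the same range, and the ratios ran from 0.785 in pair 1 to 1.26 in pair 3. The log2 difference was -0.01 (95% interval -0.53 to 0.50, limma adjusted p = 0.996), which turned to 0.05 with signals as deposited and 0.07 after quantile normalization. The dimmer tested probe set of Lrp6 had ratios of 0.492, 0.646 and 1.59 and gave -0.33 (-1.14 to 0.48, limma adjusted p = 0.836). Lrp5, its paralog and a regulator of bone mass, had a mean signal of 0.604 and was not tested. It read 0.708, 0.604 and 0.0364 in KO and 0.852, 0.623 and 0.798 in WT, lower in KO in all 3 pairs, with the value of KO 3 below the floor.

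Of the 10 secreted antagonists, 4 were tested, all of the Sfrp family. Sfrp1 had the largest difference of the 21 tested members. It read 3.30, 2.55 and 2.38 in KO and 1.12, 0.855 and 2.56 in WT, so the WT animal of pair 3 lay within the KO range. The KO mean was 2.75 ± 0.490 and the WT mean 1.51 ± 0.916 (SD, n = 3). The ratios were 2.96, 2.99 and 0.933, and the log2 difference was 1.02 (95% interval 0.15 to 1.88, unadjusted p = 0.0277 and limma adjusted p = 0.523). It was 0.73 without pair 2 and 1.57 without pair 3. This probe set is of the kind marked _x, which can also bind related transcripts. The other tested probe sets of Sfrp1 gave 0.33 and -0.11, so over all 3 pairs the probe sets of the gene did not share a direction. The probe set at -0.11 had ratios of 2.20, 0.552 and 0.652, so its sign depended on the pairs included. Sfrp genes are known to be made in fibroblasts and preadipocytes. Of 10 tested markers of these cells, 4 were higher and 1 lower in all 3 pairs (median log2 difference 0.18). Over all tested probe sets these shares were 12.4% and 18.4%. The summed marker signal was 288.2 to 342.3 in KO and 257.1 to 293.1 in WT, so the groups overlapped. Among those on the higher side, the stromal gene Pi16 had a log2 difference of 0.74 and the collagen gene Col1a1 one of 0.52 (limma adjusted p = 0.469 and 0.569). The part of these markers in the Sfrp1 values was not tested.

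Sfrp5, an adipokine that binds Wnt5a and is known to rise when fat depots expand, read 1.57, 2.37 and 0.937 in KO and 2.44, 1.68 and 2.09 in WT. KO was lower in pairs 1 and 3 and higher in pair 2, with a log2 difference of -0.43 (95% interval -1.22 to 0.35, limma adjusted p = 0.758) that was -0.90 without pair 2 and -0.07 without pair 3. Mest, an imprinted gene that rises with Sfrp5 in expanding fat, had ratios of 0.178, 0.339 and 0.510 in the same pairs (log2 difference -1.67, limma adjusted p = 0.396). The pair with the higher Sfrp5 in KO thus still had the lower Mest. Sfrp4 read 5.05, 3.95 and 2.61 in KO and 4.53, 4.33 and 3.52 in WT, and Sfrp2 read 2.63, 2.07 and 1.85 in KO and 1.43, 2.37 and 2.35 in WT. Both overlapped throughout, at log2 differences of -0.14 (-0.63 to 0.36) and 0.11 (-0.56 to 0.79). Sfrp2 turned to -0.27 without pair 1 and was 0.27 without pair 2.

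The other antagonists, Dkk1, Dkk2, Dkk3, Dkk4, Frzb and Wif1, had mean signals from 0.152 to 0.604 and were not tested. Wif1, which binds Wnt ligands directly, read 0.0471, 0.0145 and 0.205 in KO and 0.262, 0.320 and 0.249 in WT, lower on all KO arrays but with 4 of 6 signals below the floor. Among the 22 untested members as a whole, 19 had no array above the median and 12 had 3 or more signals below the floor. Wnt7a, Fzd3 and Dkk3 were the exceptions that reached the median, with highest signals of 1.19, 1.12 and 1.19. Low mean signal kept the 22 genes out of the main test, which is not the same as their absence from BAT.

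Axin2, the target gene used most widely as a readout of beta-catenin signalling, read 6.10, 4.08 and 3.43 in KO and 6.18, 7.79 and 3.42 in WT. Pairs 1 and 3 were level, with ratios of 0.986 and 1.003, and pair 2 had a ratio of 0.524. The log2 difference was -0.32 (95% interval -0.92 to 0.29, limma adjusted p = 0.773) and -0.01 without pair 2, the pair with the WT array of high actin ratio. Pair 2 also holds KO 2, the array with the highest skeletal muscle marker sum (668.2, against at most 270.0 in WT). Neither the RNA quality of WT 2 nor the muscle signal of KO 2 was tested as a cause. Pair 2 held the ratio farthest from 1 for 13 of the 21 tested members, against 5 for pair 1 and 3 for pair 3. The WT array of pair 2 was the highest of the 6 for 7 members and the lowest for 4, and the KO array of pair 1 was the highest or lowest for 12. The median log2 difference of the members was -0.26 in pair 2 and -0.02 and -0.01 in pairs 1 and 3. These counts and pair medians were not taken over all tested probe sets, so they cannot be read as particular to the members.

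The intervals show how much these 3 pairs could resolve. For 14 of the 21 tested members the 95% interval stayed within 2-fold either way, and for 2 within 1.5-fold, against 79.7% and 21.7% of all tested probe sets. The members with intervals inside 2-fold included Fzd4, Fzd1, Fzd7, Lrp6, Wnt5a, Sfrp4 and Axin2, each at its brightest probe set. The interval of the dimmer tested probe set of Lrp6 reached beyond 2-fold on the lower side. Sfrp1, Wnt8b, Wnt6, Sfrp5, Fzd2, Fzd10 and Fzd10os were not bounded in that way. Of 5 genes with more than 1 tested probe set, 2 had differences of both signs, Sfrp1 and, by a value next to 0, Fzd4.

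The rest of the pathway was read from lists of other components. Of 12 tested genes of ligand secretion and the cell surface, 0 passed adjustment and the median was -0.02. In all 3 pairs, 3 were lower and 2 higher, beside 18.4% and 12.4% of all tested probe sets. Porcn and Wls, which acylate and export Wnt ligands, had log2 differences of 0.14 and -0.09, and the amplifying receptor Lgr4 one of -0.10. Adgra2, a co-activator of Wnt7 signalling in vessels, was at -0.70 with ratios of 0.580, 0.744 and 0.544 (limma adjusted p = 0.462). Sostdc1, an antagonist at the co-receptors, was at 0.55 with ratios of 1.48, 1.47 and 1.43 (limma adjusted p = 0.511). The receptor kinase Ryk and the membrane-anchored Wnt7 cofactor Reck were at -0.48 and 0.24.

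Of 30 tested intracellular transducers, 0 passed and the median was -0.17. In all 3 pairs, 7 were lower and 2 higher, beside 18.4% and 12.4% of all tested probe sets. Dvl2, a scaffold that relays the signal from Frizzled, read 1.55, 1.85 and 2.14 in KO and 1.11, 0.853 and 0.964 in WT. Its KO arrays all lay above WT, as for 4.59% of the tested probe sets, at a log2 difference of 0.92 (95% interval 0.39 to 1.45, limma adjusted p = 0.407). Ctnnb1, beta-catenin itself, was at -0.26 with a ratio of 0.610 in pair 2 against 0.958 and 0.993. Amer1, a partner of Axin, and the corepressors Tle5 and Tle4 were at -0.71, -0.56 and -0.45. Of 18 tested genes of the planar polarity and calcium branches, 0 passed and the median was -0.12. In all 3 pairs, 6 stood below WT and 0 above it, beside the same shares of 18.4% and 12.4%. Camk2b, a calcium-dependent kinase subunit, read 1.40, 1.86 and 1.28 in KO and 2.28, 3.89 and 4.12 in WT, a log2 difference of -1.15 (-1.74 to -0.57, limma adjusted p = 0.399). Vangl1, Daam1 and Prickle1, genes of planar polarity, were at -0.50, -0.46 and -0.38.

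Of 10 tested targets of the beta-catenin branch other than Axin2, 0 passed and the median was -0.08. In all 3 pairs, 1 was lower and 1 higher, beside 18.4% and 12.4% of all tested probe sets. Ccnd1, the cell cycle gene cyclin D1, read 4.998, 5.91 and 5.23 in KO and 7.26, 11.9 and 11.6 in WT. Its KO arrays all lay below WT, as for 7.16% of the tested probe sets (log2 difference -0.90, 95% interval -1.41 to -0.39, limma adjusted p = 0.406). Tbx3 was at -0.84 with ratios of 1.08, 0.461 and 0.352, and Bambi, a decoy receptor of TGF-beta signalling, at 0.52. Id2 was at 0.35. Ccnd1 and Axin2 thus gave different values in pairs 1 and 3, with ratios of 0.688 and 0.452 for Ccnd1 where Axin2 was level.

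**Figure D4:**
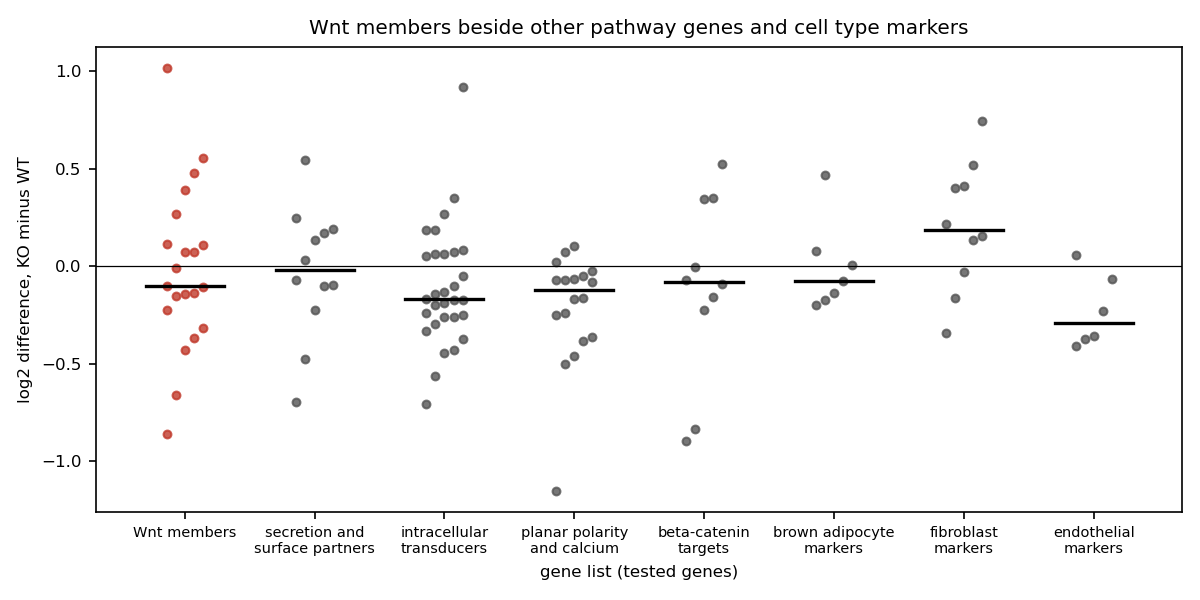
Log2 differences (KO minus WT) of the tested genes of each list, with 1 point for each gene and a bar at the median. The Wnt members (red, 21 genes) have a median of -0.10 and span 0 much as the other pathway lists do, with fibroblast markers at a median of 0.18 and endothelial markers at -0.29.

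Markers of further cell types differed in part between the groups and in part between single animals. Skeletal muscle markers summed to between 24.7 and 668.2 in KO and between 62.4 and 270.0 in WT, with the highest sum in KO 2 and with no marker of 8 lower or higher in all 3 pairs. Hepatocyte markers summed to between 1.48 and 47.1 in KO, highest in KO 3, and to between 0.819 and 1.18 in WT. Lymphocyte markers were dim, with sums between 1.98 and 3.85 over both groups. Macrophage markers had a median log2 difference of -0.00086 and smooth muscle markers one of 0.23. The 3 Schwann cell markers summed to between 27.5 and 36.1 in KO and between 54.1 and 89.5 in WT, without overlap. Their median was -0.22, and S100b, which adipocytes also express, made up most of the sum, at a log2 difference of -1.50 (limma adjusted p = 0.396). The 6 markers of white adipocytes or fat expansion had a median of -1.66, with 5 lower and 1 (Retn) higher in all 3 pairs. Over all tested probe sets these shares were 18.4% and 12.4%. Each marker had an unadjusted limma p under 0.05, as had 8.55% of all tested probe sets, and none passed adjustment (smallest limma adjusted p = 0.211). This list was chosen with earlier results of these data known, so its counts are no independent result. The part of these cells in the Wnt values was not tested.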

How the data were processed

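BAT RNA of 3 KO and 3 WT mice had been hybridised to Affymetrix mouse genome arrays, 1 animal for each. The authors deposited 1 linear signal intensity per probe set, which the labels credit to GCOS software of unstated version. The 64 control probe sets were set aside. Each intensity was divided by its array median (16.5 to 20.4 units), with a floor of 0.25 before log2. Testing covered the 22356 of 45037 probe sets whose mean exceeded 1 and used limma 3.58.1 in R 4.3.3, modelling genotype plus pair, with p-values adjusted by Benjamini-Hochberg at 0.05. Precision is limited by the number of arrays. Of 34945 probe sets with 1 symbol, 34741 matched the GRCm38.p6 gene table and 0 were renamed. The labels call the pairs littermates. After the mean of each genotype was removed, the Pearson correlation between littermates was 0.446 in pair 1, 0.0847 in pair 2 and 0.160 in pair 3. Between animals of different pairs, KO 2 and WT 3 reached 0.281, and KO 3 and WT 2 reached 0.114. The other combinations were negative, from -0.359 to -0.160. Only pair 1 thus stood clearly apart in the signals, and pairs 2 and 3 rest on the labels. Simulated data were used to test the script.

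The members and lists were chosen with earlier results of these data known. Given in full are members at 1.5-fold in all 3 pairs, the 10 largest differences, the 8 highest signals, and Axin2, Lrp5, Lrp6, Sfrp5 and Wnt10b, with up to 4 genes of each pathway list. Other genes were named to place a family after their values were seen. Alternatives changed the scaling, floor, filter, variance prior, pair block or choice of probe set, or left out a pair.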

Additional observations from a re-analysis of the deposited data

How the results depend on the processing

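Under each alternative run, 0 members passed at 0.05 by limma. The lowest member adjusted p ranged from 0.165 (robust prior with intensity trend) to 0.827 (no pair block), and 1 to 3 members had an unadjusted p under 0.05. Which members these were depended on the setting. In the limma fit without a filter the only 1 among brightest probe sets was Wnt7b (unadjusted p = 0.0249), while Sfrp1 had 0.138 and Wnt8b 0.106. In that fit a dimmer probe set of Fzd5 had 0.00507 and a dimmer one of Fzd3 had 0.0392, both lower in all 3 pairs (adjusted p = 0.634 and 0.684). Over all probe sets, 123 passed with a pseudocount of 1 in place of the floor, 40 when the mean had to exceed 2, 311 under the robust prior, and 0 to 255 with a pair left out, the highest without pair 1. Without the replicate block this count was 0 and the member median -0.10, and the unadjusted p of Wnt8b was 0.0992 without the block, which left 1 member in place of 2 under 0.05. No adjusted call of a member changed, and the other lists were not fitted without the block. The members lower in all 3 pairs numbered 3 with signals as deposited, 3 after quantile normalization and 3 when the mean had to exceed 2, which left 14 members and 1 that was higher in all pairs. Of 286 recomputed differences of single members, 275 kept their sign. Lrp6 turned to 0.051 with signals as deposited and to 0.073 after quantile normalization. With a pair left out, the log2 difference ran from -0.18 to 0.16 for Lrp6, -0.12 to 0.78 for Fzd2, -0.095 to 0.34 for Fzd5, -0.14 to 0.41 for Fzd8, -0.27 to 0.34 for Sfrp2, -0.28 to 0.011 for Sfrp4 and -0.19 to 0.43 for Wnt11. Causes of these shifts were not tested. The filter on mean signal left 22 of the 43 members untested in the main fit, and 18 of these had at least 1 array below the floor.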
